A study of Mus musculus with 15 samples.

Results

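The 10 genes H2-K1, H2-D1, B2m, H2-Q4, H2-Q6, H2-Q7, H2-T23, Tap1, Tap2 and Tapbp of the MHC class I pathway were followed in single-cell RNA sequencing of the mouse prefrontal cortex (PFC). They were chosen by symbol, with earlier results of these data known, and all 10 were among the 26145 genes of the deposited matrices. The shares over all genes printed beside their counts are therefore a background and no test of the set. The cells came from male C57BL/6N mice, with no transgene or deletion named in any group. Adult mice (8-10 weeks, called P60) had a jugular catheter and food training and then self-administered cocaine or saline intravenously, and were taken at the end of maintenance, after 48 h of withdrawal or after 15 days of withdrawal. Each of these 6 groups held 2 libraries. The 3 remaining libraries came from untreated mice of 3 weeks (P21), for which no surgery or training is described, so age and this handling cannot be told apart. Each library pooled the tissue of 2 mice. The study's methods count 4 mice for the 3 P21 libraries, so some of these libraries may share animals and the p-values for age may then be too small. The tissue field of the labels names NAc, whereas the source and the protocol name the PFC.

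The class I molecule is a heavy chain (H2-K1, H2-D1) held by the light chain beta-2 microglobulin (B2m), and it carries a short peptide to the cell surface, where CD8 T cells read it. H2-Q4, H2-Q6, H2-Q7 and H2-T23 encode class Ib heavy chains of the Qa group. Peptides cut by the proteasome enter the endoplasmic reticulum through the transporter pair Tap1 and Tap2, and tapasin (Tapbp) joins that transporter to the empty class I molecule. Interferons raise most of these genes. In the brain, neurons hold little class I, and endothelial cells and microglia hold much of it; class I genes of neurons have been studied for a part in synapse refinement.

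Of the 10 genes, 9 lie on chromosome 17 and B2m lies on chromosome 2. On the NCBIM37 build, the MHC genes run from Tapbp (17:34052844-34066235) past H2-K1 (17:34132962-34137278), Tap1 (17:34324498-34334170), Tap2 (17:34340472-34353266), H2-D1 (17:35399675-35404444), H2-Q4 (17:35516562-35522235), H2-Q6 (17:35561795-35567000) and H2-Q7 (17:35576100-35580714) to H2-T23 (17:36166718-36169800). B2m spans 2:121973422-121978819. The Qa genes are close copies. Of 41 windows of 98 bases from the last 500 transcript bases, 11 in H2-Q4, 11 in H2-Q6, 10 in H2-Q7 and 3 in H2-T23 occurred again on the chromosome, and 0 did so in the other members. Of the 41, 23 in H2-T23, 12 in H2-Q7, 10 in Tap2, 7 in B2m and 5 in H2-K1 were absent from the chromosome. A repeat of those could not be found by this search. Counts of the Qa genes are therefore uncertain between copies. The annotation also places Patl2 antisense to the end of B2m, Psmb9 antisense over Tap1, other genes antisense to H2-T23, and Rgl2 on the same strand within 300 bases of the end of Tapbp.

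H2-K1, H2-D1, H2-Q4, H2-Q6 and H2-Q7 hold a like stretch before their start sites, which is shown here because these members are described together below. Sequences and positions are those of RefSeq on GRCm38.p6, written 5′ to 3′ along the gene's strand, and 9 of the 10 genes had an entry. The windows hold 60 bases each. Capitals mark GGATTCCC, the core of enhancer A, and TTTCACTTC, the core of the class I interferon consensus sequence, both searched on each strand.
H2-K1, 17:34000414-34000473, minus strand: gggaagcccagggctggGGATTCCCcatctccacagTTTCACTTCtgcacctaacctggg
H2-D1, 17:35262908-35262967, plus strand: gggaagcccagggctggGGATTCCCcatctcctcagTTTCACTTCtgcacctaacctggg
H2-Q4, 17:35379428-35379487, plus strand: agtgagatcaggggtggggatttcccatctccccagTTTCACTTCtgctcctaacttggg
H2-Q6, 17:35424662-35424721, plus strand: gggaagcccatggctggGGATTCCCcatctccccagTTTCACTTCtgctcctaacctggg
H2-Q7, 17:35439006-35439065, plus strand: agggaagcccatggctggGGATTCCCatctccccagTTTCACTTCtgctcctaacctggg
TTTCACTTC stood in the promoters of 5 of the 9 genes, against 0.505% of 32851 mouse promoters of the same length (250 bases before to 50 bases after the start). GGATTCCC stood in 4 of the 9, against 1.02% of promoters. The TTTCACTTC motif is named for class I genes and the 5 windows are much alike, so no enrichment is read from these shares. The next 2 windows are shown because B2m and H2-T23 hold another motif, GAAANNGAAA, the core of the interferon-stimulated response element, which 3.44% of promoters hold. In H2-T23 it lies on the other strand and its reverse complement is in capitals.
B2m, 2:122147512-122147571, plus strand: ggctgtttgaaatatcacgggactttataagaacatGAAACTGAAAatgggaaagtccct
H2-T23, 17:36032802-36032861, minus strand: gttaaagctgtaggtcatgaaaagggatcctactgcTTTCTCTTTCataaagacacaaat
None of the 3 motifs was found in the windows of Tap1 or Tapbp.

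The retained cells numbered 24822 at P60 and 10538 at P21, with 8375172 to 42892922 UMIs (counted mRNA molecules) per library. The authors' cell table gives each cell an L2 cluster, whose name sets the cell type used here. In each of the 8 types the summed markers of that type were highest in the type itself. At P60 the 5 endothelial markers summed to 12155 CPM in endothelial cells and to at most 127 CPM elsewhere. Any 2 libraries shared 0 to 27 cell barcodes, at most 1.09% of the smaller library. Levels are given as CPM, the UMIs of a gene scaled to the total UMIs of a cell type summed over a library, without mitochondrial and ribosomal protein genes. Libraries with under 10 cells of a type were left out. Each value is a mean ± SD over libraries, and fewer cells with a transcript and less transcript per cell cannot be told apart in such sums.

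Endothelial cells and microglia held the highest level of every member at P60. H2-K1 reached 704 ± 211 CPM in endothelial cells (n = 12 libraries), with a lowest library of 454 CPM, a median of 647 and a highest of 1257. In microglia it reached 506 ± 66.9 CPM, with a lowest library of 350, a median of 513 and a highest of 578. Endothelial cells were higher in 11 of 12 libraries, although the ranges overlapped (exact sign-flip permutation test over libraries, 2-sided, adjusted p = 0.0054 over the 70 neighbouring pairs of cell types of the 10 genes). Astrocytes followed at 117 ± 22 CPM (n = 11), oligodendrocyte precursors (OPC) at 93.2 ± 28.7, newly formed oligodendrocytes at 76.5 ± 65.9, oligodendrocytes at 28.8 ± 8.29, inhibitory neurons at 12.3 ± 7.20 and excitatory neurons at 2.44 ± 0.789. Among astrocytes, OPC, newly formed oligodendrocytes and oligodendrocytes no neighbouring pair differed (adjusted p of 0.16, 0.671 and 0.0744), and oligodendrocytes, inhibitory and excitatory neurons each differed from the next. The endothelial mean was 289 times that of excitatory neurons.

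H2-D1, the other classical heavy chain, gave a partly different order. It reached 1075 ± 172 CPM in endothelial cells (lowest 894, median 1023, highest 1534) and 698 ± 179 CPM in microglia (lowest 415, median 659, highest 1007). Endothelial cells were higher in 12 of 12 libraries (exact sign-flip permutation test, adjusted p = 0.0038, the smallest of the 70). OPC came next at 213 ± 73.4 CPM and differed from both neighbours. Astrocytes held 30.5 ± 12.5 CPM of H2-D1, which did not separate them from inhibitory neurons at 32.9 ± 11.6 CPM (adjusted p = 0.671). Astrocytes were thus in the third place for H2-K1 and next to last for H2-D1. Excitatory neurons were last for both, with H2-D1 at 18.2 ± 5.43 CPM.

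B2m was the only member whose level in microglia passed the endothelial level by the test. It reached 4687 ± 623 CPM in microglia (lowest 3609, median 4776, highest 5533) and 2155 ± 411 CPM in endothelial cells (lowest 1669, median 2104, highest 3127). The 2 ranges did not overlap (exact sign-flip permutation test, adjusted p = 0.0038). Excitatory neurons held 123 ± 13.1 CPM of B2m and inhibitory neurons 115 ± 24.2 CPM, which did not differ (adjusted p = 0.578). Oligodendrocytes were lowest at 64 ± 12.4 CPM.

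**Figure D1:**
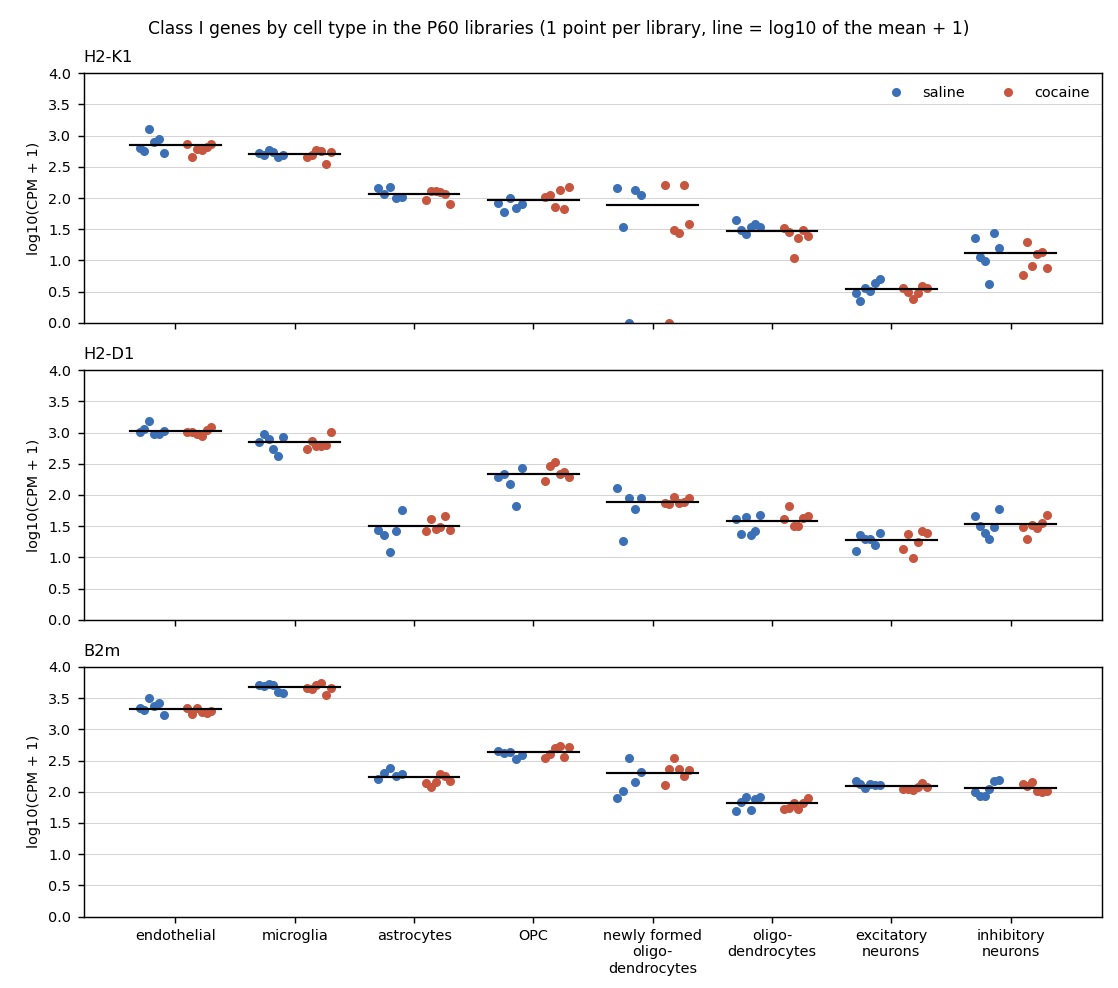
H2-K1, H2-D1 and B2m by cell type. The y axis is log10(CPM + 1), each point is 1 P60 library (saline blue, cocaine red) and the line is the mean of the libraries. Endothelial cells and microglia stand above the other types in all 3 panels, and B2m is the panel in which microglia stand above endothelial cells.

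H2-Q4, H2-Q6 and H2-Q7 were highest in endothelial cells and microglia, whereas H2-T23 was also counted in excitatory neurons (5.80 ± 1.68 CPM). H2-Q4 was at 100 ± 26.7 CPM in endothelial cells and 42.5 ± 18.1 in microglia (adjusted p = 0.0038, exact sign-flip permutation test). H2-Q7 was at 43.5 ± 22.9 against 15.1 ± 9.09 CPM (adjusted p = 0.00932). H2-Q6 was at 23.6 ± 13.1 against 19.7 ± 12.6 CPM, a difference that the test did not separate (adjusted p = 0.669). In excitatory neurons H2-Q4, H2-Q6 and H2-Q7 were at 0.0521 to 0.147 CPM. There, H2-Q4 gave 0.0114 UMIs for each UMI of the 5 endothelial markers in saline libraries, and in endothelial cells themselves it gave 0.00973. For H2-Q6 the ratios were 0.00317 and 0.00265, and for H2-Q7 0.00888 and 0.0051. No expression in excitatory neurons is read from these counts, and the part of free RNA in them was not tested. H2-T23, which encodes Qa-1, the ligand of NKG2 receptors, was at 64.2 ± 21.7 CPM in microglia and 54.5 ± 13.1 CPM in endothelial cells (adjusted p = 0.0725).

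The peptide loading genes had the same 2 leading types. Tap1 was at 35.9 ± 9.81 CPM in endothelial cells and 22.9 ± 10.4 in microglia (exact sign-flip permutation test, adjusted p = 0.0171). Tap2 was at 92 ± 23 and 58 ± 21.2 CPM (adjusted p = 0.0038), and it kept 35.2 ± 12.7 CPM in OPC and 30.1 ± 12.9 CPM in astrocytes. Tapbp was at 192 ± 26.2 and 185 ± 36.7 CPM, which the test did not separate (adjusted p = 0.671). Over all 10 members, 31 of the 70 neighbouring pairs differed. With the 6 saline libraries alone 0 of 70 did (smallest adjusted p = 0.175), where the exact test on at most 6 pairs has few possible values.

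Within endothelial cells the levels varied with the sub-cluster. Over the 13 P60 sub-clusters of at least 50 cells, with UMIs pooled over libraries, H2-K1 ran from 364 CPM in Endo_13 to 1082 CPM in Endo_12, with a median of 695 CPM. Endo_13 was lowest for 8 of the 10 members, and its endothelial markers also summed to the lowest value, 6832 CPM. Endo_12 was highest for H2-K1, for H2-Q6 (54.8 CPM, median 17.2) and for H2-Q7 (92.4 CPM, median 53.9), and its cells came from 6 libraries with at least 10 cells. Endo_2, in which the 5 pericyte and mural markers were highest at 6828 CPM, held 620 CPM of H2-K1. These are pooled values with no test.

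Across the 82 L2 clusters of at least 50 P60 cells, the members' log2(CPM + 1) rose and fell together. Pearson's r between members ran from 0.626 (H2-K1 and H2-T23) to 0.940 (H2-Q6 and H2-Q7) over the 82 clusters, which share their libraries and differ in depth. Among 6851 other genes, those most like H2-K1 were Sparc (r = 0.963), Msn (0.957), Btg2 (0.947), Klf4 (0.947) and Clk1 (0.945). For H2-D1 they were Ier2 (0.939), Klf4 (0.936), Klf6 (0.929), Fosb (0.928) and Psmb8 (0.927), the last an immunoproteasome subunit. For B2m they were Junb (0.95), Lyn (0.949), Psmb8 (0.942), Irf1 (0.942) and Entpd1 (0.942), Irf1 being an interferon regulatory factor. Ier2, Fosb, Junb and Btg2 are immediate early genes.

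The comparison of the 3 P21 libraries with the 6 saline P60 libraries asks how transcription changes from adolescence to adulthood. In endothelial cells all 10 members were higher at P60 in every library, with no overlap between the ages, and 9 of the 10 were called (edgeR quasi-likelihood test, adjusted p under 0.05 and over 1.5-fold). Of all 10417 genes tested in endothelial cells, 5.31% were called higher at P60 and 7.35% lower, and 14.5% were higher at P60 without overlap. H2-Q6 and H2-Q7 passed the filter on low counts through the P60 libraries alone (0 of 3 P21 libraries over the filter's limit of 5.315 CPM), so they had to differ, and they are given as values only. The other 8 members were over that limit in all 9 libraries, and 7 of them were called. The median log2 change was 1.14 over these 8 members and 0.01 over all genes tested.

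H2-K1 was at 265, 152 and 152 CPM in the P21 libraries. In the saline P60 libraries its lowest value was 529 CPM, its median 715 and its highest 1257. Every adult library thus lay above every young one, and the means were 190 ± 64.8 and 780 ± 271 CPM. The log2 change was 1.89 ± 0.32 (SE, adjusted p = 0.00355, edgeR). The share of endothelial cells with at least 1 H2-K1 UMI was 46.4% of 2032 cells at P21 and 86.6% of 1856 at P60 (95% Wilson intervals 44.2 to 48.5% and 85.0 to 88.1%, counting error only). Drawing 2000 UMIs from each cell that held at least 2000, with the other cells left out, gave 26.7% and 66.3%. The median depths of all cells before thinning were 3912 and 4530 UMIs per cell. In excitatory neurons, where H2-K1 is scarce, the share was 2.22% at P21 and 3.77% at P60, at 9233 and 13676 UMIs. With 2000 UMIs drawn per cell in the same way it was 0.524% and 0.417%. No interval was computed for these small thinned shares, so no order of the ages is read from them.

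H2-D1 was at 679, 531 and 487 CPM at P21, against a lowest of 948, a median of 1047 and a highest of 1534 CPM in saline P60 endothelial cells. Its log2 change was 0.83 ± 0.16 (adjusted p = 0.00245, edgeR). B2m was at 1097, 807 and 716 CPM at P21, against 1669, 2301 and 3127 CPM for the lowest, median and highest adult library. Its log2 change was 1.28 ± 0.18 (adjusted p = 0.000302). P21 library 1 was the highest young library for both genes and still lay under the lowest adult library.

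H2-Q7 and H2-Q6 had the largest log2 changes of the 10 members in endothelial cells. H2-Q7 was at 2.42, 1.68 and 0.405 CPM at P21 (13 UMIs in all) and at 32 to 86 CPM, with a median of 49, in the adult libraries. The ratio of pooled UMIs was 35.8 (95% exact interval 20.7 to 67.8, counting error only). H2-Q6 had 2 UMIs at P21, both in library 1, and was at 12 to 46 CPM at P60, with a median of 26. Its ratio was 121 (95% exact interval 33.1 to 1004). H2-Q4 was at 51.2, 5.88 and 7.30 CPM at P21 and at 85.2 to 126 CPM at P60. P21 library 1 thus stood apart from the other P21 libraries in H2-Q4, and its log2 change of 2.07 ± 0.61 was not called (adjusted p = 0.056). H2-T23 was at 32.4, 21.4 and 23.5 CPM at P21 and at 42.5 to 79.2 CPM at P60 (log2 1.01 ± 0.20, adjusted p = 0.00258, edgeR).

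Both transporter genes and tapasin were also higher in adult endothelial cells. Tap2 was at 40.9, 20.6 and 28.8 CPM at P21 and at 79.2 to 139 CPM at P60, with a log2 change of 1.59 ± 0.24 (adjusted p = 0.000713, edgeR). Tapbp was at 134, 116 and 106 CPM at P21 and at 197 to 232 CPM at P60, with a log2 change of 0.67 ± 0.11 (adjusted p = 0.000704). Tap1 was at 26.4, 16 and 17.4 CPM at P21 and at 29.7 to 62.6 CPM at P60, with a log2 change of 0.80 ± 0.24 (adjusted p = 0.0337). The call of Tap1 was lost when any 1 of 5 libraries was left out (P21 libraries 2 and 3, saline maintenance library 3, and saline 48 h libraries 5 and 7, adjusted p from 0.0514 to 0.158). It was also lost when P21 libraries 2 and 3, which may share animals, were summed (log2 0.72, adjusted p = 0.126). H2-Q4 was called when P21 library 1 was left out (log2 3.84), with all 12 P60 libraries (log2 2.05, adjusted p = 0.00872) and with cells labelled by the class column of the cell table (log2 2.25, adjusted p = 0.0315). With all 12 P60 libraries Tapbp fell below the 1.5-fold limit (log2 0.57).

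**Figure D2:**
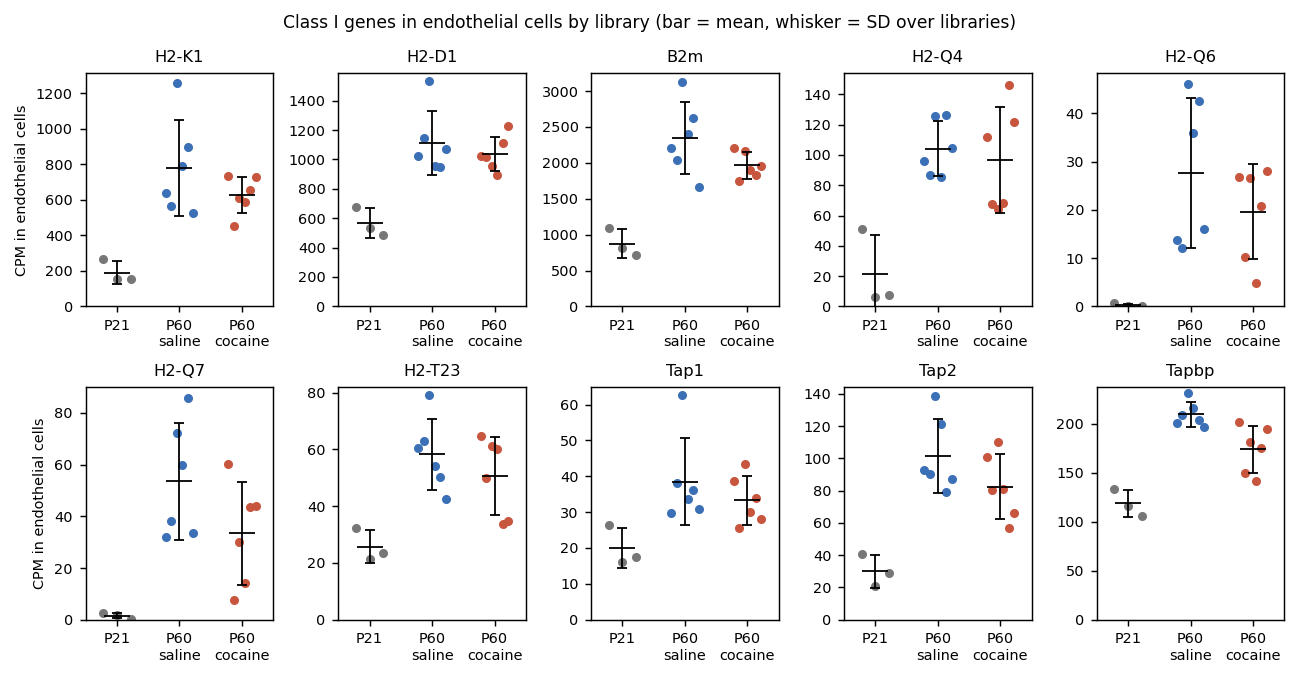
The 10 genes in endothelial cells, in CPM, with 1 point per library (P21 grey, saline P60 blue, cocaine P60 red), the mean as a bar and the SD as a whisker. All P21 points lie under all saline points in each panel. The saline point of 62.6 CPM stands apart in the Tap1 panel.

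Marker sums of other cells in the endothelial libraries are given for both ages, with no test. The 5 endothelial markers summed to 9851 ± 2901 CPM at P21 and 11380 ± 1036 at P60, with all 5 detected at both ages. The 5 pericyte and mural markers summed to 2896 ± 336 and 3578 ± 324 CPM. The 5 microglial markers, of which all were detected, summed to 81.1 to 257 CPM at P21 and 28 to 89.3 at P60, and the 4 perivascular macrophage markers were at 11.4 to 25.4 and 16 to 49.3 CPM. The 4 T cell markers were at 0.606 to 3.78 CPM at P21, with Cd3e at 0, and at 0 to 19.2 CPM at P60, and the 4 fibroblast markers at 98.1 to 129 and 39.9 to 85 CPM. The 4 hemoglobin genes took 103927 to 134530 CPM at P21 and 53279 to 88620 at P60. With hemoglobin genes left out of the library sizes, an alternative chosen after the data were seen, 9 members were called again. The P21 endothelial cells carry no sub-cluster, so the makeup of sub-clusters was not compared between ages and its part in the result was not tested.

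Excitatory neurons showed a smaller set of changes. Of the 10 members, 6 passed the filter on low counts and 3 were called higher at P60, whereas 8.18% of the 13247 genes tested were called higher and 11.1% lower. B2m was at 84.4, 66 and 61.3 CPM at P21 and at 114 to 147 CPM in the saline libraries, with a median of 131. Its log2 change was 0.95 ± 0.11 (adjusted p = 5.39e-05, edgeR). H2-T23 was at 2.38, 0.857 and 1.74 CPM at P21 and at 4.70 to 8.49 CPM at P60 (log2 1.94 ± 0.27, adjusted p = 0.000173). Tap2 was at 0.632, 0.234 and 0.0725 CPM at P21, on 21 UMIs in all, and at 1.09 to 2.46 CPM at P60. It passed the filter through the P60 libraries alone (0 of 3 P21 libraries over the limit of 0.725 CPM), so its log2 change of 2.28 ± 0.43 is given as a value only. The ages did not overlap for B2m or H2-T23, where 13.7% of all genes tested were higher at P60 without overlap. The values of Tap2 did not overlap either, which the filter favoured. Of the 5 members over the limit in every library of both ages, 2 were called.

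The classical heavy chains were not called in excitatory neurons when cells were labelled by L2 cluster. H2-D1 was at 23.7, 22.1 and 22.8 CPM at P21 and at 11.9 to 23.9 CPM at P60, a log2 change of -0.26 ± 0.17 that was not called (adjusted p = 0.255, edgeR). H2-K1 was at 4.35, 1.79 and 1.52 CPM at P21 and at 1.21 to 4.05 CPM at P60 (log2 0.08 ± 0.36, adjusted p = 0.873). With cells labelled by the class column, H2-K1 was called higher at P60 in excitatory (log2 1.10, adjusted p = 0.0211) and in inhibitory neurons (log2 1.23, adjusted p = 0.0431). By the L2 label both genes overlapped between the ages. Of the cells that were excitatory by the L2 label, 276 of 5934 at P21 and 10 of 14443 at P60 differed in the class column. Tapbp was at 12.6, 11.4 and 9.79 CPM at P21 and at 14.5 to 17.6 CPM at P60, without overlap, and its log2 change of 0.57 ± 0.11 (adjusted p = 0.00154) lay under the 1.5-fold limit. Without P21 library 1 or without saline maintenance library 2 it passed that limit (log2 0.67 and 0.59).

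Marker sums of other cell types and depth are given beside these neuronal changes. Endothelial markers in excitatory neurons were lower at P60 (14.4 ± 8.66 CPM) than at P21 (59.5 ± 22.6), and microglial markers were too (13.6 ± 6.07 against 48.3 ± 42.2). In saline excitatory neurons B2m gave 7.24 UMIs per endothelial marker UMI, against 0.211 in endothelial cells, and 8.00 per microglial marker UMI, against 0.158 in microglia. For H2-K1 these figures were 0.167 in excitatory neurons and 0.0716 in endothelial cells. The share of excitatory neurons with a B2m UMI was 39.0% of 5934 cells at P21 and 72.1% of 6707 at P60. After thinning to 2000 UMIs, with cells of fewer UMIs left out, it was 10.7% and 20.9%. The part of RNA from other cells in these changes was not tested.

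Inhibitory neurons held fewer cells and 4 members passed the filter, of which 2 were called higher at P60 against a background of 5.73% of genes. B2m was at 60.6, 70.9 and 59.9 CPM at P21 and at 84.4 to 153 CPM at P60 (log2 0.89 ± 0.18, adjusted p = 0.00204, edgeR). Tapbp was at 7.18, 5.03 and 6.55 CPM at P21 and at 7.42 to 19.0 CPM at P60 (log2 1.29 ± 0.31). Tapbp and H2-K1 passed the filter through the P60 libraries alone (0 of 3 P21 libraries over the limit of 9.991 CPM), so the call of Tapbp is given as a value only. B2m did not overlap between the ages, where 7.96% of all genes tested were higher at P60 without overlap. The values of Tapbp did not overlap either, which the filter favoured. Of the 2 members over the limit in every library of both ages, 1 was called. H2-K1 (log2 0.92 ± 0.42, adjusted p = 0.135) and H2-D1 (log2 -0.17 ± 0.26, adjusted p = 0.683) were not called. Without saline 48 h library 7 H2-K1 was called (log2 1.19, adjusted p = 0.0257).

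Microglia, the other type rich in class I, showed no called member among the 8 tested, where 0.726% of all genes were called in either direction. At P21 they were few, with 149, 21 and 12 cells per library. Of all genes tested, 3.68% were higher at P60 without overlap between the ages. B2m was at 2957, 3207 and 2917 CPM at P21 and at 3858 to 5276 CPM at P60, without overlap, and its log2 change of 0.79 ± 0.24 was not called (adjusted p = 0.177, edgeR; 1 member, B2m, was called by DESeq2 and 2 had an unadjusted p under 0.05). H2-K1 was at 495, 570 and 197 CPM at P21 and at 456 to 578 CPM at P60 (log2 0.32 ± 0.27). H2-D1 was at 786, 784 and 709 CPM at P21 and at 415 to 960 CPM at P60 (log2 0.01 ± 0.27). Both overlapped between the ages. H2-T23 was at 23.8, 47.5 and 0 CPM at P21 and at 39.8 to 84.9 CPM at P60 (log2 1.47 ± 0.52, adjusted p = 0.255).

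The result for microglia depended on which deposited cell label was used. By the class column of the cell table in place of the L2 cluster, 6 members were called higher at P60 in microglia, B2m among them (log2 2.23). The 2 labels differed for 459 of the 10538 cells at P21 and for 33 of the 24822 at P60. By the class column there were 329 P21 microglia, of which 182 were microglia by L2 cluster. The P21 microglia of the class column had 8327 CPM of microglial markers and 2011 CPM of excitatory markers, against 18252 and 277 CPM by L2 cluster.

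In the other glia no member was called by edgeR in the main comparison. Astrocytes gave 0 of 5 tested members, with 1.11% of all genes called and 1 member at an unadjusted p under 0.05. That member was H2-D1, which was at 67.3, 58.1 and 113 CPM at P21 and at 11.3 to 56.4 CPM at P60 (log2 -1.31 ± 0.39, adjusted p = 0.128). Its values at P60 were lower without overlap, as were those of 4.99% of all genes tested. Without saline 15-day library 12 it was called (log2 -1.70, adjusted p = 0.022). Oligodendrocytes gave 0 of 4, where 17.8% of all genes were called and 2 members, H2-D1 and Tapbp, had an unadjusted p under 0.05. Both passed the filter through the P60 libraries alone (0 of 3 P21 libraries over the limit of 23.31 CPM), so nothing is read from these p-values. Newly formed oligodendrocytes gave 0 of 3, with 1.94% of all genes called and 0 members at an unadjusted p under 0.05. DESeq2 called 0 members in these 3 types. OPC could not be tested, with 28, 7 and 6 cells at P21.

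**Figure D3:**
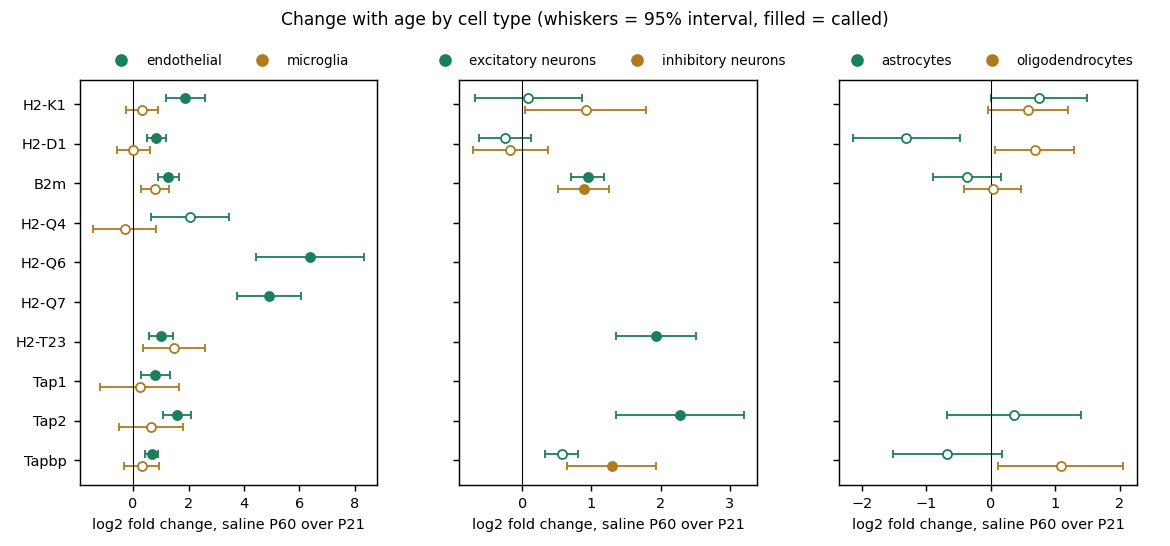
Log2 fold change of saline P60 over P21 for the members that passed the filter, with 95% intervals from edgeR on the x axis (filled points were called), for endothelial cells and microglia (left), neurons (middle), and astrocytes and oligodendrocytes (right). Endothelial points lie right of 0 for all 10 genes, from 0.67 for Tapbp to 6.38 for H2-Q6, whose value rests on 2 UMIs at P21. Astrocyte H2-D1 lies at -1.31.

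Whether the change with age differed between cell types was tested within libraries, as the difference of log2(CPM + 1) between endothelial cells and another type. These 12 tests were chosen after the data were seen. For H2-K1 the endothelial excess over microglia was -1.05 ± 0.78 at P21 and 0.53 ± 0.43 at P60, a difference of 1.58 on the log2 scale. For H2-D1 the difference was 1.12, and for B2m 0.79. Against excitatory neurons the differences were 1.97 for H2-K1, 1.33 for H2-D1 and 0.53 for B2m. In these 6 tests the 3 P21 and 6 saline libraries did not overlap (exact permutation test, 2-sided, p = 0.0238 each, the smallest that 6 against 3 allows, adjusted p = 0.0476). The CPM here lack the TMM normalization of the edgeR fits. The edgeR log2 changes of B2m were 1.28 in endothelial cells, 0.79 in microglia and 0.95 in excitatory neurons. For H2-D1 they were 0.83, 0.01 and -0.26, and for H2-K1 1.89, 0.32 and 0.08. The tests were not repeated with TMM. Against astrocytes no test passed, with differences of 2.54 for H2-D1 and 1.64 for B2m (exact permutation test, adjusted p = 0.0536 for both) and of 0.96 for H2-K1, with overlap (adjusted p = 0.25). Against inhibitory neurons no test passed (exact permutation test, adjusted p of 0.0571, 0.0571 and 0.182). The tests against microglia rest on the L2 label and on 149, 21 and 12 P21 microglia per library. By the class column the microglial log2 changes were 1.72 for H2-K1, 1.34 for H2-D1 and 2.23 for B2m. The endothelial changes by L2 cluster were 1.89, 0.83 and 1.28. The difference between these types was not tested with the class column.

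Levels also varied among the L2 clusters of excitatory neurons at P60. B2m ran from 65.8 ± 7.83 CPM in Exc_19 (n = 12) to 231 ± 26.3 CPM in Exc_10 (n = 12), where the lowest library held 199 CPM. The 2 clusters did not overlap. H2-D1 ran from 5.50 ± 3.54 CPM in Exc_4 (n = 12) to 56.6 ± 14.1 CPM in Exc_22 (n = 9), also without overlap. H2-T23 ran from 0.865 ± 1.21 CPM in Exc_15 (n = 8) to 24.7 ± 9.59 CPM in Exc_13 (n = 12). Exc_19 and Exc_20 were the lowest 2 for B2m and the highest 2 for Tapbp (21.7 ± 5.32 and 22.1 ± 10.8 CPM). No neighbouring pair in the order of the 26 clusters differed for any of B2m, H2-D1, H2-T23 or Tapbp (0 of 25 pairs each, exact sign-flip permutation test, smallest adjusted p of 0.781, 0.0977, 0.793 and 0.793).

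B2m was called higher at P60 in part of the neuronal clusters. In the 28 neuronal L2 clusters in which B2m passed the filter (26 excitatory, 2 inhibitory), its fitted log2 change was above 0 in 28 and called in 17. The values ran from 0.06 in Exc_4 to 1.5 in Exc_18. The clusters share their libraries, so the counts of 28 and 17 are not made of separate results. Among all gene by cluster tests, 4.26% were called higher and 6.35% lower. These shares include Inhib_9, where 1505 genes but no member were tested. The count of 17 fell to 11 without P21 library 2 or without P21 library 3, and to 10 without saline maintenance library 2. H2-T23 passed the filter in 3 clusters (Exc_18, Exc_19 and Exc_20), on 15, 5 and 7 UMIs at P21, and a filter on low counts keeps clusters with a high P60 level, so its calls there are given as values only. In Exc_20 it was at 1.55 ± 1.79 CPM at P21 and 25.5 ± 5.40 at P60 (log2 3.53, adjusted p = 0.00268, edgeR), and in Exc_18 at 4.02 ± 2.12 and 21.4 ± 5.09 CPM (log2 2.01, adjusted p = 0.019). In Exc_19 it was at 1.25 ± 0.647 and 14.5 ± 10.0 CPM, with overlap between the ages. Tapbp was called higher in 3 of 7 clusters (Exc_19, Exc_21 and Exc_25), and in 1 without P21 library 3 or without saline 15-day library 11. In Exc_21 and Exc_25, 0 and 1 of the 3 P21 libraries were over the filter's limit for Tapbp, so these calls too are given as values only. H2-D1 was called lower in 1 of 12, Exc_21, where it was at 50.8 ± 12.9 CPM at P21 and 16.3 ± 10.7 at P60 (log2 -1.46, adjusted p = 0.000587; 3 of 3 P21 and 2 of 6 saline libraries over the filter's limit), while B2m was higher there (34.7 ± 12.9 at P21 and 85.2 ± 11.4 CPM). Without P21 library 3, 2 clusters called H2-D1 lower. Other members passed the filter in no cluster.

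**Figure D4:**
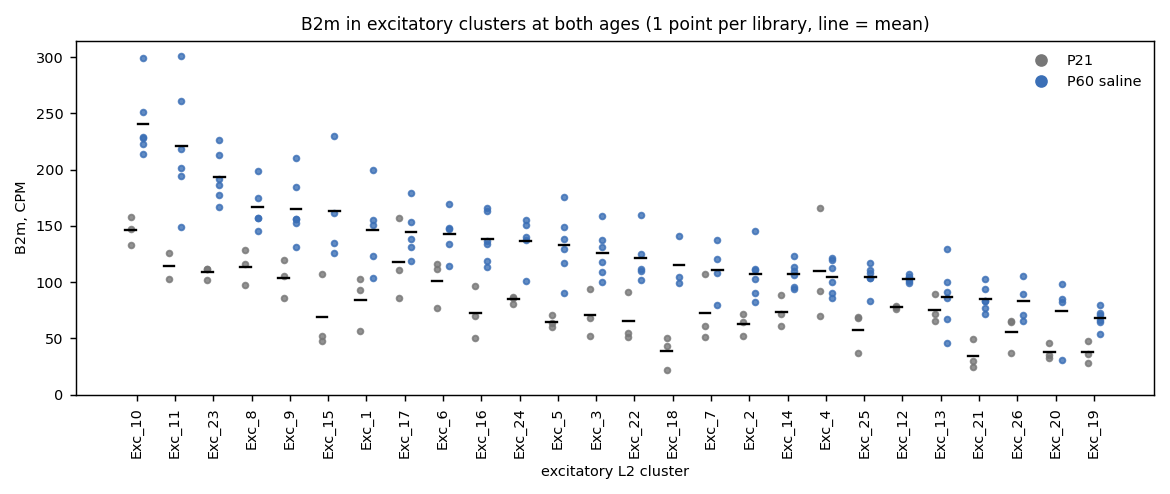
B2m in CPM in the 26 excitatory L2 clusters, ordered by the saline P60 mean, with 1 point per library (P21 grey, saline P60 blue) and the mean as a line. The P60 mean lies above the P21 mean in 25 of the 26 clusters, Exc_4 being the exception.

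The comparison of cocaine with saline asks whether drug intake changes transcription at each period. It was run on all 12 P60 libraries in 5 cell types, giving 33 tests of members in each contrast, and no member was called in any contrast. At maintenance 0.0115% of all tests across genes were called, at 48 h 0.00689%, at 15 days 0.452%, averaged over the periods 0.00689%, and in the differences between periods 0.00612%. Unadjusted p-values were under 0.05 in 1 of the 33 tests at maintenance, 7 at 48 h, 6 at 15 days and 6 averaged over the periods, and the cocaine value was lower in each of these 20. The average over the periods uses the libraries of the tests within periods again, so these are not 20 separate results. Some of the 20 passed the filter on low counts only or mostly through saline libraries. They are H2-Q6 in microglia and H2-K1 in inhibitory neurons at 15 days, and Tapbp in oligodendrocytes averaged over the periods. Nothing is read from the shared direction of the 20. Tests of the difference between periods had an unadjusted p under 0.05 in 5 of 33 for 15 days minus 48 h, 4 for 15 days minus maintenance and 2 for 48 h minus maintenance, of which 3, 3 and 2 were negative. Over all genes the share with an unadjusted p under 0.05 ran from 2.69% to 8.51% by cell type over these 7 contrasts, and it was 5.55% in endothelial cells at 48 h, where 6 of the 10 members fell under it. DESeq2 called 0 members too. Averaged over the periods, 29 of 33 log2 changes were negative, which is a description, since the members share libraries.

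Endothelial cells at 48 h are given first. The members' log2 changes at 48 h were negative for all 10, with a median of -0.41 against 0.03 for all genes tested. H2-K1 was at 1257 and 789 CPM in the saline libraries and at 613 and 589 CPM in the cocaine libraries (log2 -0.70 ± 0.25, adjusted p = 0.754, edgeR). B2m was at 3127 and 2396 CPM with saline and at 2163 and 1898 CPM with cocaine (log2 -0.37 ± 0.16, adjusted p = 0.817). Tapbp was at 232 and 216 CPM with saline and at 181 and 142 CPM with cocaine (log2 -0.41 ± 0.15, adjusted p = 0.724). Saline library 5 was the highest of the 12 for each of these 3 genes. H2-Q4 had a log2 change of -0.62 ± 0.21 (adjusted p = 0.62). With no filter on low counts, H2-K1 at 48 h was called (log2 -0.74, adjusted p = 0.00272). At 15 days Tap2 was at 83.2 CPM with saline and 61.4 CPM with cocaine in the mean (log2 -0.44 ± 0.18, adjusted p = 0.779).

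The neuronal tests within a period, or averaged over the periods, with an unadjusted p under 0.05 were as follows. In excitatory neurons at maintenance B2m was at 147 and 132 CPM with saline and at 108 CPM in both cocaine libraries (log2 -0.38 ± 0.11, adjusted p = 0.735, edgeR). Averaged over the periods its log2 change was -0.17 ± 0.06 (adjusted p = 0.488). Tap2 in excitatory neurons at 48 h was at 2.46 and 1.71 CPM with saline and at 0.968 and 1.13 CPM with cocaine (log2 -0.94 ± 0.34, adjusted p = 0.978). H2-T23 there at 15 days was at 6.40 and 4.70 CPM with saline and at 2.73 and 4.35 CPM with cocaine (log2 -0.63 ± 0.27, adjusted p = 0.61). In inhibitory neurons at 15 days B2m was at 147 and 153 CPM with saline and at 98 and 101 CPM with cocaine (log2 -0.59 ± 0.18, adjusted p = 0.184). At maintenance the order was opposite, with inhibitory B2m at 96.5 and 85.9 CPM with saline and at 132 and 121 CPM with cocaine. H2-K1 at 15 days was at 26.8 and 15.0 CPM with saline and at 12.5 and 6.68 CPM with cocaine (log2 -1.10 ± 0.41, adjusted p = 0.412, edgeR). Only 4 of the 12 libraries were over the filter's limit of 14.14 CPM for H2-K1. Both saline libraries of 15 days were among them and 0 cocaine libraries of that period, so this change is given as a value only. The inhibitory B2m values of the cocaine libraries at 15 days lay within the range of saline values at the other periods (84.4 to 110 CPM).

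**Figure D5:**
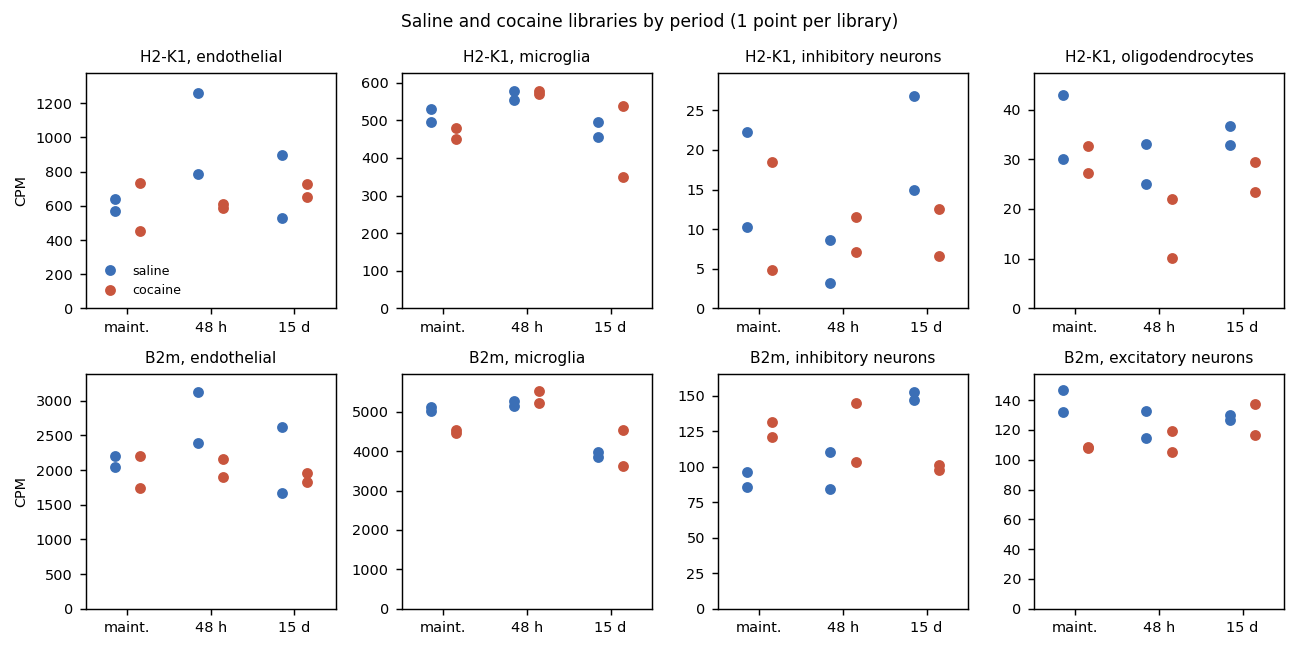
H2-K1 (top; endothelial cells, microglia, inhibitory neurons, oligodendrocytes) and B2m (bottom; endothelial cells, microglia, inhibitory and excitatory neurons) by period, with CPM on the y axes and 1 point per library (saline blue, cocaine red). Endothelial saline libraries at 48 h lie above the cocaine libraries for both genes, and inhibitory neurons at 15 days do so too.

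Microglia and oligodendrocytes gave no called member. In microglia H2-Q6 at 15 days was at 41.5 and 43.2 CPM with saline and at 4.17 and 7.69 CPM with cocaine (log2 -2.88 ± 0.89, adjusted p = 0.931, edgeR), on few UMIs and with 36 to 89 cells per library. The 2 saline libraries of 15 days were the only ones of the 12 over the filter's limit for it, so it is given as a value only. In oligodendrocytes averaged over the periods Tapbp had a lower value with cocaine (log2 -1.14 ± 0.43, adjusted p = 0.643, edgeR). Of the 12 libraries, 3 were over the filter's limit of 19.56 CPM for Tapbp, all of them saline libraries. This change is therefore given as a value only. Astrocytes, OPC and newly formed oligodendrocytes had a saline maintenance library of under 10 cells. A fit that allows 1 library in that group, chosen after the data were seen, gave 13 tests in each contrast and called 0, with 1 unadjusted p under 0.05 in the average over the periods. Without saline 15-day library 12, that fit rested on saline library 11 alone at 15 days. Library 11 was the lowest P60 library for H2-D1 in OPC (64.6 CPM, against 269 CPM in library 12). The log2 change of H2-D1 in OPC was then 1.78 at 15 days and 0.88 averaged over the periods, and both are given as values only. In 14 excitatory L2 clusters with enough cells, 33 tests in each contrast called 0 members, where 0.198% of all gene by cluster tests were called. B2m averaged over the periods was below 0 in 14 of 14 clusters, from -0.31 in Exc_12 to -0.01 in Exc_14. The smallest adjusted p of B2m there was 0.536 (edgeR). The clusters share the 12 libraries, so the count of 14 is a description. Without saline 15-day library 12, H2-D1 in Exc_8 had a log2 change of 1.52 at 15 days. Saline library 11 was then alone in its group, so this is given as a value only.

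Other genes of the pathway were followed in 5 lists, also chosen with earlier results of these data known. In endothelial cells with age, 3 of 13 tested genes of antigen processing were called higher, 2 of 6 other class I genes, 3 of 5 class II genes and 2 of 14 interferon response genes, and 2 interferon response genes were called lower, beside 5.31% of all genes called higher and 7.35% lower. No gene of class I receptors passed the filter. The immunoproteasome subunit Psmb8 was at 95.5 ± 20.7 CPM at P21 and 288 ± 72.0 at P60 (log2 1.45 ± 0.20, adjusted p = 0.000364, edgeR). Ifit3, an interferon-induced gene, was at 26.4 ± 15.0 and 134 ± 28.4 CPM (log2 2.16 ± 0.32, adjusted p = 0.00167). The class II genes H2-Aa (6.10 ± 2.05 and 27.0 ± 15.6 CPM, log2 1.98), Cd74 (26.5 ± 3.02 and 113 ± 60.2 CPM, log2 1.93) and H2-Ab1 (7.74 ± 2.02 and 32.3 ± 15.6 CPM, log2 1.87) also rose (adjusted p of 0.0498, 0.0410 and 0.0253, edgeR), H2-Aa with 2 of 3 P21 libraries over the filter's limit. The perivascular macrophage marker sums given above reached higher values at P60 and the microglial sums lower ones, both with overlap. The part of such cells in the class II values was not tested. Ifngr2, a subunit of the interferon gamma receptor, fell by 1.22 on the log2 scale (18.5 ± 5.27 to 8.78 ± 2.76 CPM, adjusted p = 0.00392).

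In excitatory neurons 3 of 13 genes of antigen processing, 2 of 4 other class I genes, 3 of 11 interferon response genes and 1 of 1 class I receptor were called higher at P60, and 1 other class I gene and 4 interferon response genes were called lower, beside 8.18% and 11.1% of all genes. H2-T22, a class Ib heavy chain, was at 6.66 ± 1.85 CPM at P21 and 20.4 ± 2.20 at P60 (log2 1.65 ± 0.16, adjusted p = 1.63e-05, edgeR). Tapbpl, a tapasin-related protein, rose by 1.39 on the log2 scale (5.65 ± 2.13 to 14.5 ± 0.714 CPM), and Ifit3 by 1.47. Fcgrt, an Fc receptor of the class I fold (log2 -1.62), and Ifitm3 (log2 -1.48) fell, and the endothelial marker sum in these neurons was lower too. The receptor, Klrk1 (log2 1.33, named after its value was seen), passed the filter with 0 of 3 P21 libraries over its limit, and the interferon response gene Rtp4 (log2 -1.58) with 0 of 6 saline libraries over it. Both had to differ, so their calls are given as values only. In inhibitory neurons Ifngr2, 1 of 3 tested interferon response genes, was called lower (log2 -1.09), beside 738 of all 8900 genes tested. In oligodendrocytes Pdia3, 1 of 7 tested genes of antigen processing, was called lower (log2 -1.07, adjusted p = 0.000878, edgeR), beside 525 of all 5102. In microglia no gene of the 5 lists was called by edgeR, where 0.726% of all genes were called in either direction. H2-T22 in inhibitory neurons (log2 1.26) and Psme1 in oligodendrocytes (log2 1.27), also called, had 0 of 3 P21 libraries over the filter's limit and are given as values only. With cocaine, Ifnar2, a subunit of the type I interferon receptor, was called higher at 15 days in endothelial cells (log2 1.03 ± 0.21, adjusted p = 0.0437) and in excitatory neurons (log2 0.99 ± 0.18, adjusted p = 0.0223). Ifitm3 at 15 days in inhibitory neurons (log2 -2.46 ± 0.44) was called lower as well, but 3 of the 12 libraries were over the filter's limit for it, among them both saline libraries of 15 days, so it is given as a value only.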

How the data were processed

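Single-cell libraries (10x Chromium, Cell Ranger, mm9 per the labels) were deposited by the authors as UMI counts per gene and cell. The cell table deposited by the authors gives each retained cell's total count, mitochondrial fraction, class and L2 cluster. Raw counts were summed per library and cell type, keeping 25991 genes after removal of 13 mitochondrial and 141 ribosomal protein genes. Library totals ran from 8375172 to 42892922 UMIs. Intervals of shares and of UMI ratios cover counting error only, and those of log2 changes come from the edgeR fit, which includes the spread between libraries. Doublets were not called anew. Sums were tested with edgeR 4.0.16 (TMM, filterByExpr, robust quasi-likelihood fit, R 4.3.3) and, as an alternative, DESeq2 1.42.0. A gene was called at an adjusted p (Benjamini-Hochberg over all genes tested in that type or cluster) under 0.05 and above 1.5-fold. Cell types or clusters needed 10 cells per library and 2 libraries per group, and in leave-one-out fits a group could hold 1 library, assumed to vary like the others. Exact permutation tests used scipy 1.17.1. The steps were tested on simulated data. The 10 genes were named throughout, and of the 5 lists at most 6 called genes per comparison in the order of the absolute log2 change. Members and lists were chosen with earlier results of these data known. The lists are antigen processing, other class I, class II, interferon response and class I receptors. Where nothing else is stated, libraries count as replicates although each pools 2 mice. Alternatives were other normalization, filter, fold limit, cell minimum, cell label saline or all P60 libraries, P21 libraries 2 and 3 summed, and libraries left out in turn. Leaving out hemoglobin genes, allowing a group of 1 library and the tests of endothelial against other types were chosen after seeing the data.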

Additional observations from a re-analysis of the deposited data

Results flagged for a closer look

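In endothelial cells 1 saline library, library 5 of the 48 h period, stood far from the other 5 saline libraries in 2 members. For H2-D1 it held 1534 CPM, and its gap to the next library took 0.662 of the whole range of the 6. For Tap1 it held 62.6 CPM, and the gap took 0.747 of the range. The limit for 6 libraries is 0.625, and chance alone passes it in about 1 of 20 groups. Of 44 pairs of gene and cell type with at least 50 UMIs, 2 passed. Without this library Tap1 lost its call with age (log2 0.60, adjusted p = 0.0514, edgeR).

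The log2 change of H2-D1 with age had a different sign in different cell types, with no overlap between the 3 P21 and the saline P60 libraries in each. It was 0.83 in endothelial cells, 0.68 in oligodendrocytes and -1.31 in astrocytes. Of all genes tested, 14.5% in endothelial cells and 12.8% in oligodendrocytes were higher at P60 without overlap. In astrocytes 4.99% were lower without overlap. The difference between endothelial cells and astrocytes was tested (exact permutation test, 2-sided, adjusted p = 0.0536 over 12 tests), and that between oligodendrocytes and astrocytes was not tested. In oligodendrocytes and astrocytes the change itself was not called in the main comparison (adjusted p of 0.11 and 0.128, edgeR), so opposite changes are not shown there. With all 12 P60 libraries, cocaine included, it was called in both. The log2 changes were then 0.85 in oligodendrocytes and -1.25 in astrocytes (adjusted p of 0.0292 and 0.0355, edgeR). In oligodendrocytes H2-D1 passed the filter on low counts through the P60 libraries alone (0 of 3 P21 libraries over the limit), and its value had to be higher there.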

How the results depend on the processing

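With age, the number of members called higher in endothelial cells stayed within 1.5 times under all alternatives run. Labelling cells by the class column, which differs for 459 P21 cells, gave 5 members called higher in excitatory neurons (3 in the main comparison), 6 in microglia, 1 in astrocytes, 3 in oligodendrocytes and 1 in newly formed oligodendrocytes (0 in the main comparison of each), and the cause was not tested. It also turned H2-Q4 in microglia to 1.23 and B2m in astrocytes to 0.34 (log2). DESeq2 called 1 member in microglia. Using all 12 P60 libraries called 1 member lower in astrocytes and 1 higher in oligodendrocytes, and in endothelial cells it added H2-Q4 (log2 2.05) and dropped Tapbp (0.57). With no filter on low counts 1 member was called lower in astrocytes, 1 lower with cocaine in endothelial cells, and 1 higher in excitatory neurons (H2-D1, 15 days minus 48 h). Changes near 0 turned sign. With P21 libraries 2 and 3 summed, Tap1 lost its endothelial call (adjusted p = 0.126), H2-K1 in excitatory neurons went to -0.069 and H2-D1 in microglia to -0.047. With all 12 P60 libraries, H2-K1 in excitatory neurons went to -0.015, Tap1 in microglia to -0.056 and B2m in oligodendrocytes to -0.062. H2-D1 in microglia went to -0.0057 by DESeq2 and to -0.0034 with its size factors. Saline libraries alone left 0 of 70 neighbouring cell types different (smallest adjusted p = 0.175), in exact tests on at most 6 pairs.

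Leaving out 1 library at a time, the log2 change with age ran from -0.16 to 0.81 for H2-K1 in excitatory neurons, -0.50 to 0.00097 for H2-D1 in inhibitory neurons, and, in microglia, -0.79 to 0.89 for Tap1, -0.077 to 0.16 for H2-D1 and -0.55 to 1.66 for H2-Q4. It ran from -0.58 to 0.076 for B2m in astrocytes and from -0.049 to 0.11 for B2m in oligodendrocytes. Members called lower in astrocytes ran from 0 to 1. Neuronal clusters that called B2m higher ran from 10 to 20, Tapbp from 1 to 4, and H2-D1 lower from 1 to 2. Calls with cocaine in clusters ran from 0 to 1. No paired analysis was possible because the library titles give the adult groups no shared replicate numbers. With 2 libraries in each cocaine and saline group, and 12 to 149 P21 microglia per library, a change without a call is not shown to be absent.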
